A study of Mus musculus with 4 samples.

Results

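The glucocorticoid receptor gene *Nr3c1*, the receptor-linked genes *Tsc22d3*, *Fkbp5* and *Per1*, and the metallothionein genes *Mt1* and *Mt2* were examined in single blood vascular endothelial cells (BECs) of mouse ear dermis. The 6 genes were chosen by name and are 6 of 46517 genes in the count tables, in which rows carry Ensembl identifiers that were matched to mouse symbols. The cells came from ears of wild-type female C57Bl/6 mice, 12 to 26 weeks old by the labels, with no treatment, and had been sorted as CD31+/CD45-/Lyve1- into 384-well plates. There were 2 replicates of 2 plates each, plate A and plate B. The study's methods name the strain C57BL/6 J and a different, younger age range. Cells of 6 mice were pooled, and the design text can be read as 6 mice per replicate or 6 mice in all. Single animals therefore cannot be told apart, and the SD over the 2 replicates may be the spread between pools or between preparations of 1 pool. No group was treated, so the values below describe resting BECs as they were after dissociation and sorting.

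The glucocorticoid receptor is a transcription factor that rests in the cytoplasm in a complex with heat shock proteins and enters the nucleus when it binds cortisol or corticosterone. *Tsc22d3* encodes GILZ, an anti-inflammatory protein, and *Fkbp5* encodes a cochaperone that lowers the receptor's affinity for hormone. Both are textbook targets of the receptor. *Per1* encodes a repressor of the circadian clock that glucocorticoids also induce. Metallothioneins are small cysteine-rich proteins that bind zinc and copper, and their genes respond to metals through the factor MTF1 and, in many tissues, to glucocorticoids.

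*Mt1* and *Mt2* lie side by side on chromosome 8 of GRCm38, *Mt2* at chr8:94172664-94173568 and *Mt1* at chr8:94179082-94180327, both on the plus strand and 5513 bases apart. *Per1* lies on chromosome 11 (chr11:69095217-69109960, plus strand), *Fkbp5* on chromosome 17 (chr17:28399094-28517527, minus strand) and *Tsc22d3* on the X chromosome (chrX:140539528-140600659, minus strand). Because the 2 metallothioneins are so alike, their coding sequences (GENCODE vM21, 186 bases in 3 exons each) are shown to see whether a 50-base read can tell them apart. Capitals mark the 38 bases that differ.
Mt1: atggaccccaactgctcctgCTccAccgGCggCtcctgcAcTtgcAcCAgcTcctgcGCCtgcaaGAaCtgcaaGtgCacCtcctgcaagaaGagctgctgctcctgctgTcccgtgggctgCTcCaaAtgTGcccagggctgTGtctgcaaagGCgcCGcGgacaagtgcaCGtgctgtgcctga
Mt2: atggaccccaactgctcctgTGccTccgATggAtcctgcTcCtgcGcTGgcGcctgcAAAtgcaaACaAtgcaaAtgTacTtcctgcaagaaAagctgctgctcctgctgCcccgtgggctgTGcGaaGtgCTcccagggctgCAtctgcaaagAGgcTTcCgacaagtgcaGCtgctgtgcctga
The sequences were identical at 79.6% of positions, and the longest identical run was 20 bases. Over the whole transcripts, no 50-base stretch of *Mt1* came closer to *Mt2* than 5 mismatches, and 0 of its 1292 stretches matched *Mt2* with 2 or fewer mismatches. Of the 50-base stretches of *Mt2*, 45.8% are shared with Gm45774, a gene model on the opposite strand of the same locus that has no row in the tables, and without strand information reads of the pair cannot be told apart. Exact copies elsewhere in the transcriptome were found for 0.456% of *Tsc22d3* stretches, 0.684% of *Fkbp5* stretches and 0.0643% of *Nr3c1* stretches, and for no stretch of *Per1* or *Mt1*.

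The 250 bases before the RefSeq start of each metallothionein gene are shown because *Mt1* and *Mt2* were the pair that varied together (below). Capitals mark the metal response element core that MTF1 binds, written TGCACNC or TGCGCNC and searched on both strands, and in *Mt1* also a match to the glucocorticoid response element, searched as the half-sites GNACA and TGTNC with 3 bases between them.
Mt1, chr8:94178839-94179088, plus strand: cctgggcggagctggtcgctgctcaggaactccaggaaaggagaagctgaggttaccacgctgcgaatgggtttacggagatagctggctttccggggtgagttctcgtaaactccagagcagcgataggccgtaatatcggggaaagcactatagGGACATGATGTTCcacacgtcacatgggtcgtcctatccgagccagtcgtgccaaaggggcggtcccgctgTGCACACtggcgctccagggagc
Mt2, chr8:94172368-94172617, plus strand: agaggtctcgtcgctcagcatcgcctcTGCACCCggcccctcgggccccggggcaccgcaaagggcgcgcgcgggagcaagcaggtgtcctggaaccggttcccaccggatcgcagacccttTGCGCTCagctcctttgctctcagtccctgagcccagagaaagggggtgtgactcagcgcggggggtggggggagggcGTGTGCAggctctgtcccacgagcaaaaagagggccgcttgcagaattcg
*Mt2* held 3 metal response element cores, starting 223, 128 and 50 bases before the RefSeq start, the last one on the minus strand. *Mt1* held 1 core, starting 23 bases before it, and 1 glucocorticoid element, starting 94 bases before it. Of 32536 promoter windows of the same length, 21.5% held at least 1 metal response element core and 0.390% held the glucocorticoid element. None of the windows of *Tsc22d3* (3), *Fkbp5* (1) or *Per1* (2) held the glucocorticoid element in these letters. The E-box CACGTG, the site of clock factors, was found in 1 window of *Per1* and in the window of *Fkbp5*, beside 6.04% of all windows. The GENCODE start of *Mt2* lies 47 bases after the end of its window, and further transcript starts of *Mt1* lie downstream, so these windows are only part of the regions before the genes.

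Of 1536 wells, 701 were kept as BECs, 338 in replicate 1 and 363 in replicate 2. Each showed reads for 2 or more of the genes *Kdr*, *Pecam1* and *Cdh5* and stayed under 100 CPM (counts scaled to the reads on genes of the well) for each of the lymphatic, immune and mural genes *Lyve1*, *Prox1*, *Ptprc*, *Pdgfrb* and *Kcnj8*. All 10 endothelial markers listed were at 10 CPM or more in both replicates. The plates held 31864976 to 74739095 reads on genes, and kept wells had a median of 142614.5 reads in replicate 1 and 92974 in replicate 2. Reads of genes of other cell types were spread thinly over replicate 1: *Pdgfrb* of mural cells had a read in 92.6% of its kept wells and *Col1a1* of fibroblasts in 92.9%, mostly 1 to 3 reads, against 20.9% and 25.1% in replicate 2. *Pdgfrb* is itself limited by the choice of wells. At 10 reads or more, these shares were 0.888% and 8.58% in replicate 1 and 0% and 3.03% in replicate 2. The mural gene *Rgs5* went further, with 10 or more reads in 84.0% of wells of replicate 1 and 4.41% of replicate 2, and *Tagln* in 31.1% and 24.5%. The lymphatic genes *Ccl21a* and *Mmrn1* went the other way, with a read in 14.5% and 11.8% of wells of replicate 1 and 74.1% and 52.6% of replicate 2. A well with 1 to 3 reads of a gene is therefore within what genes of other cells show in both replicates, so shares with at least 10 reads are given beside shares with any read, and abundant genes of other cells pass that limit too.

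**Figure D1:**
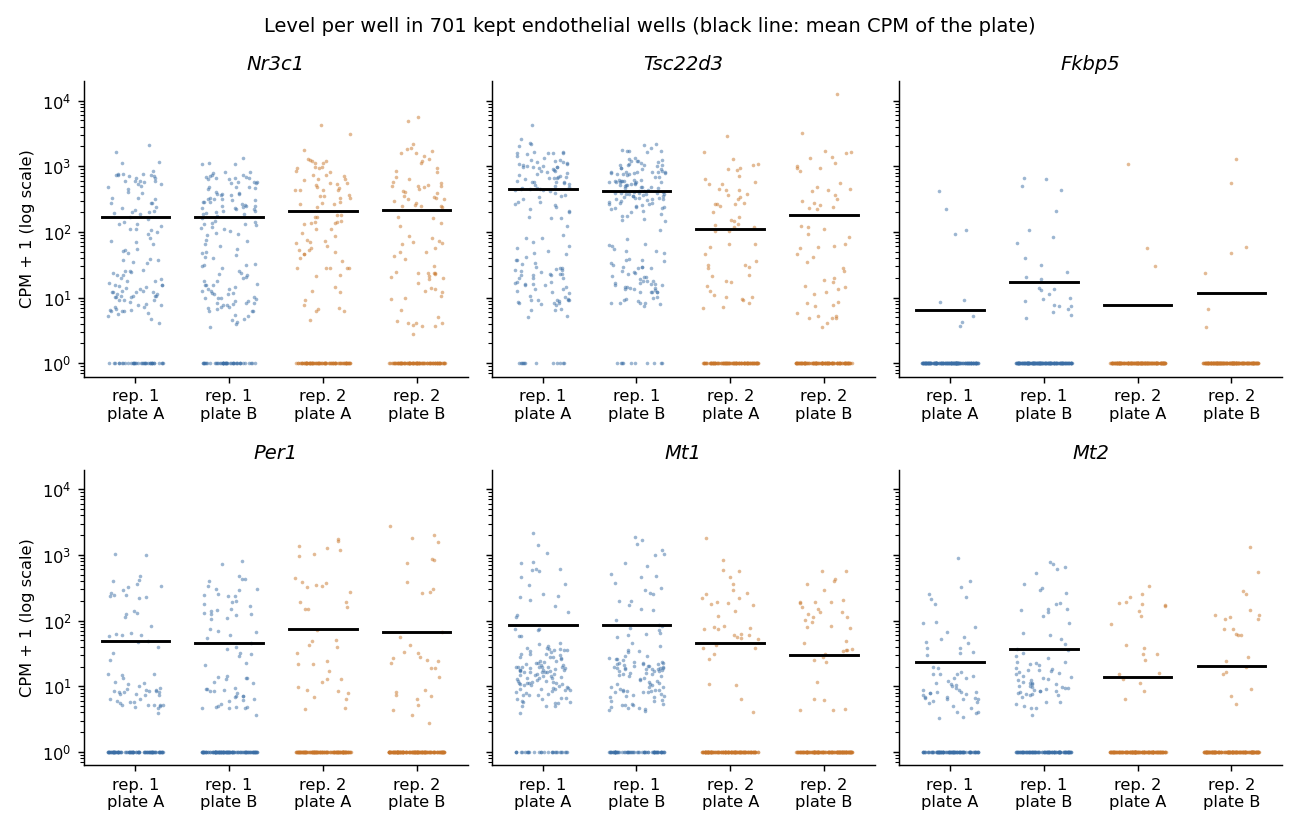
Level of each gene in each of the 701 kept wells, by plate, as CPM + 1 on a log scale; points at 1 are wells without a read and the black line is the mean CPM of the plate. *Tsc22d3* is high in most wells of replicate 1 and in few wells of replicate 2, and *Fkbp5* is without a read in most wells of every plate.

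*Nr3c1*, the receptor, which lies on chromosome 18, was found in many wells of both replicates at similar mean levels. Its mean was 169.6 CPM on plate A and 170.4 CPM on plate B of replicate 1, and 207 and 217 CPM on plates A and B of replicate 2. The replicates averaged 191 ± 29.8 CPM (SD, n = 2). A read was present in 75.7% of wells of replicate 1 (exact 95% binomial interval 70.8 to 80.2%) and 46.6% of replicate 2 (41.3 to 51.8%). At 10 or more reads the shares were 39.1% and 25.9%. When every well was thinned to 20000 reads and shallower wells were left out, they were 48.1% and 41.5%, and the gap was smaller than without thinning. These intervals are over wells and cover counting error only, since the wells come from pooled mice and are not independent samples of animals.

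*Tsc22d3*, the gene of GILZ, had the widest ratio between the replicate means over all kept wells, though on plate B alone *Mt1* had a wider one (2.98-fold against 2.29-fold). Its mean was 452 and 412 CPM on the plates of replicate 1 and 111 and 180.2 CPM on those of replicate 2. Both plates of replicate 1 lay above both of replicate 2, 2.94-fold on the replicate means of 431 and 147 CPM. A read was present in 93.5% of wells of replicate 1 and 32.2% of replicate 2, and 10 or more reads in 58.3% and 15.2%. Thinning to 20000 reads left the gap in place, at 70.9% (65.8 to 75.7%) and 23.5% (18.7 to 28.7%), while *Col1a1*, the fibroblast gene, stood at 39.2% and 12.9% of the same thinned wells. One well of replicate 2 held 12354 CPM, and without the highest well of each replicate the means were 419 and 113 CPM, 3.71-fold apart. The 10% of wells with the most held 38.7% of the summed CPM in replicate 1 and 87.2% in replicate 2: the gene was on in most wells of the former and concentrated in a few wells of the latter. Animals, preparation and library cannot be told apart in this difference, and no test was made.

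*Fkbp5*, the cochaperone gene, was the rarest. Its plate means were 5.51 and 16.2 CPM in replicate 1 and 6.68 and 10.6 CPM in replicate 2, or 9.98 ± 1.80 CPM over the replicates. Reads were found in 36 of 338 wells of replicate 1 and 10 of 363 of replicate 2. Of these, 12 and 4 wells had 10 or more reads, and the 10% of wells with the most held 99.8% and 100.0% of the summed CPM.

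*Per1*, the clock repressor, was on in a minority of wells and was the member with the higher mean in replicate 2 besides *Nr3c1*. Its plate means were 47.6 and 44.8 CPM in replicate 1 and 73.8 and 65.2 CPM in replicate 2. Replicate 2 was 1.51-fold higher by the mean but had fewer wells with a read, 20.1% against 40.5%, and fewer with 10 or more, 7.71% against 16.0%. The 10% of its wells with the most held 97.8% of the summed CPM, against 80.0% in replicate 1, so fewer wells carried more.

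*Mt1* had plate means of 84.4 and 84.6 CPM in replicate 1 and 44.2 and 28.4 CPM in replicate 2. The replicate means, 84.5 and 36.1 CPM, were 2.34-fold apart. A read was found in 72.2% of wells of replicate 1 and 20.9% of replicate 2, but 159 of the 244 positive wells of replicate 1 had only 1 to 3 reads, the level that genes of other cell types also showed there. At 10 or more reads the shares were 14.8% and 11.8%. *Mt1* was therefore high in a small set of wells in both replicates: the 10% of wells with the most held 82.8% and 87.6% of the summed CPM. *Mt2* was likewise held by few wells, with plate means of 22.5 and 36.1 CPM in replicate 1 and 12.9 and 19.2 CPM in replicate 2, and 10 or more reads in 9.47% and 6.34% of wells. Because the authors removed reads at duplicated positions, a short transcript has a limited number of possible reads per well: the highest well had 345 reads of *Mt1*, 34.5% of the 1000 start positions on both strands of its principal transcript, and 169 of *Mt2*, 18.3% of 924. For *Tsc22d3* it was 757 reads, 19.7% of 3850, and for the other members at most 6.37%. Levels of the highest wells may thus be compressed for these genes, and this was not tested.

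**Figure D2:**
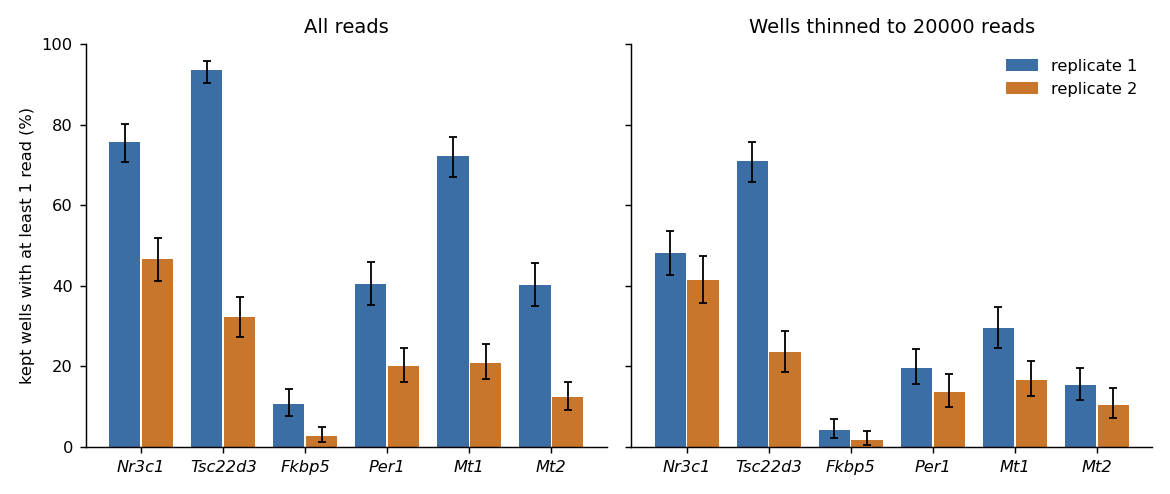
Percent of kept wells with at least 1 read of each gene in replicate 1 and replicate 2, with all reads (left) and after thinning each well to 20000 reads (right); error bars are exact 95% binomial intervals for counting error only. For *Tsc22d3* the replicates stay apart after thinning (70.9% and 23.5%), and for *Nr3c1* they come close (48.1% and 41.5%).

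Per kilobase of the principal transcript, the scale on which levels of different genes can be compared, *Tsc22d3* stood at 146 ± 102 CPM per kb (SD, n = 2) and *Mt1* at 109.8 ± 62.4. *Mt2* followed at 45.0 ± 18.9, *Nr3c1* at 29.7 ± 4.63, *Per1* at 12.4 ± 3.53 and *Fkbp5* at 2.59 ± 0.466. The replicate values of *Tsc22d3* and *Mt1* overlapped, as did those of *Mt2* and *Nr3c1*, and those of the other neighbours did not. *Mt1* was above *Mt2* in each replicate, at 154 against 58.4 CPM per kb in replicate 1 and 65.7 against 31.6 in replicate 2.

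The replicate difference was set beside all genes. Of 8683 genes at 10 CPM or more in both replicates, 12.6% were at least 2-fold higher in replicate 1 and 6.88% in replicate 2. The members reached 2 of 5 (*Tsc22d3* and *Mt1*) and 0 of 5, *Fkbp5* being below 10 CPM in replicate 2. The median gene was itself higher in replicate 1 by 0.26 on the log2 scale, and lower by 0.17 when the wells were scaled with scran size factors, so differences are also given relative to it. On that scale *Tsc22d3* was 2.45-fold higher in replicate 1 (2.59-fold with scran factors), *Mt1* 1.96-fold (1.87), *Mt2* 1.54-fold (1.46) and *Fkbp5* 1.08-fold (1.66). *Nr3c1* stood at 0.670 of its replicate 2 level (0.764) and *Per1* at 0.555 (0.507). The direction of *Fkbp5* was not stable: it stood at 0.677 on plate A, 0.923 after thinning, 0.964 and 0.329 at limits of 300 and 10 CPM on the genes of other cells, and 2.06 in the wells of the named vessel classes. *Nr3c1* turned to 1.19 at the 10 CPM limit. The ratio for *Mt1* varied with the choice of wells, from 1.16-fold at the 10 CPM limit and 1.34-fold in the named vessel classes to 2.32-fold at 300 CPM and 2.48-fold on plate B. *Tsc22d3* stood at 2.39-fold, 2.92-fold, 2.40-fold and 1.91-fold in the same settings. At the 10 CPM limit the ratio of *Fkbp5*, in the other direction, was wider than that of *Tsc22d3*. That limit kept 18 wells of replicate 1, of which 1 had a read of *Fkbp5*, and 229 wells of replicate 2.

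In a list of 30 further glucocorticoid targets, most stood higher in replicate 1 relative to the median gene, as *Tsc22d3* did. Of the 20 at 10 CPM or more in both replicates, 18 were above the median gene's ratio in replicate 1, and their median was 0.68 log2 units above it. Other settings gave fewer: 13 of 18 at the 10 CPM limit, 14 of 20 at 300 CPM, 15 of 19 on plate A and 15 of 20 in the named classes, and the median excess was 0.31 on plate A. Without scaling to the median gene, 9 of the 20 were at least 2-fold higher in replicate 1 and 0 in replicate 2, beside the 12.6% and 6.88% of all genes. At 2-fold relative to the median gene, 3 were higher in replicate 1 and 0 in replicate 2, beside 6.22% and 11.3% of all genes. These 3, named here after their values were seen, were *Sgk1*, a kinase that controls ion transport (1108 and 385 CPM), *Arrdc3*, an arrestin-like protein (71.8 and 16.8 CPM), and *Bcl2l1*, which encodes the survival factor Bcl-xL (239.7 and 56.4 CPM). The 4 most abundant targets per kb were *Dusp1*, a MAP kinase phosphatase, at 1630.4 and 802 CPM, *Nfkbia*, the inhibitor of NF-kB, at 1164 and 565 CPM, *Sult1a1*, a sulfotransferase, at 759.5 and 367 CPM, and *Gadd45g*, a stress sensor, at 500.5 and 414 CPM in replicates 1 and 2. The ratio of *Gadd45g* was close to that of the median gene. The 28 dissociation response genes measured had a median log2 ratio of 0.22, close to the 0.26 of all genes, and 4 of them were at least 2-fold higher in replicate 1 and 0 in replicate 2 without scaling to the median gene, beside 12.6% and 6.88% of all genes. Chaperone, cofactor and steroid-handling genes (17 measured) had a median of 0.24, clock genes (15) 0.27 and genes of zinc transport and metal stress (18) 0.34.

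Of the listed chaperone, cofactor and steroid-handling genes, *Hsp90ab1* was the most abundant per kb (1455 and 1053 CPM in replicates 1 and 2). The chaperones *Hspa8* (736 and 462 CPM) and *Hsp90b1* (250.3 and 241 CPM) and the cochaperone *Ptges3*, also called p23 (147 and 84.5 CPM), followed. Among clock genes, the repressor *Nr1d1* (328 and 261 CPM) and *Bhlhe40* (395 and 240.1 CPM) led, followed by *Nfil3* (69.1 and 67.2 CPM) and *Dbp* (53.3 and 35.2 CPM). Among genes of zinc and metal handling the leaders were the zinc importers *Slc39a7* (187 and 96.3 CPM) and *Slc39a10* (190.1 and 302 CPM), and *Nqo1* (46.7 and 50.3 CPM) and *Txnrd1* (95.3 and 63.0 CPM), enzymes of the oxidative stress response. The other metallothionein genes listed, *Mt3* and *Mt4*, had too few reads to be tested.

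*Mt1* and *Mt2* were the pair that varied together from well to well. Across wells their Spearman correlation was 0.26 in replicate 1 (338 wells) and 0.39 in replicate 2 (363 wells), and on single plates it ranged from 0.26 to 0.47. The relation was carried by wells with many reads. In replicate 1, 25 wells had 10 or more reads of both genes, where independence would give 4.73, and in replicate 2 there were 14, where it would give 2.72. These were 78.1% of the wells at 10 or more reads of *Mt2* in replicate 1 and 60.9% in replicate 2, and 50.0% and 32.6% of those of *Mt1*. Wells with 1 to 3 reads of *Mt1* had a read of *Mt2* about as often as wells without, in 30.2% against 36.2% in replicate 1 and 7.14% against 6.27% in replicate 2. With 10 or more reads of *Mt1*, 80.0% and 51.2% of wells had a read of *Mt2*, whose mean was 152 and 68.2 CPM in these wells and 13.2 and 8.89 CPM in wells without *Mt1*. The wells of a plate share library preparation, and these values are given as a description without a test.

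Within vessel classes the *Mt1* and *Mt2* correlation was 0.46 and 0.42 in artery-like wells, 0.47 and 0.35 in vein-like wells, and -0.10 and 0.61 in capillary-like wells of replicates 1 and 2. Of the 125 capillary-like wells of replicate 1, 6 had 10 or more reads of *Mt1* and 1 had as many of *Mt2*. Thinned to 20000 reads, the correlation over all kept wells was 0.42 and 0.36.

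The other 14 pairs did not show a like relation: their correlations lay between -0.08 and 0.14 in the replicates and between -0.11 and 0.26 on single plates. *Nr3c1* and *Tsc22d3*, the receptor and its target, gave 0.08 in replicate 1 and 0.14 in replicate 2, where reads per well correlated with *Nr3c1* at 0.27 and with *Tsc22d3* at 0.20. In replicate 1, 85 wells had 10 or more reads of both, where independence would give 76.9, and in replicate 2 there were 22 against 14.2. Within vessel classes this pair gave 0.19 in capillary-like wells of both replicates. It gave -0.21 and 0.02 in artery-like wells and -0.01 and 0.13 in vein-like wells of replicates 1 and 2. Within classes the 14 pairs ran from -0.37 (35 artery-like wells) to 0.33 (32 capillary-like wells). *Tsc22d3* and *Per1* gave 0.07 and 0.03, and *Tsc22d3* and *Mt1* gave 0.04 and 0.03. *Tsc22d3* and *Mt2* gave 0.10 in replicate 2 and no correlation in replicate 1, with 25 and 9 wells at 10 or more reads of both against 18.7 and 3.48. On plate A of replicate 2 alone *Tsc22d3* and *Mt2* reached 0.26, with 14 wells holding both against 7.25 under independence, and on plate B they stood at -0.06. *Per1* and *Mt2* gave 11 wells at 10 or more reads of both in replicate 1 against 5.11, and 2 against 1.77 in replicate 2. *Mt1* and *Mt2* alone among the 15 pairs reached 0.26 or more on all 4 plates.

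**Figure D3:**
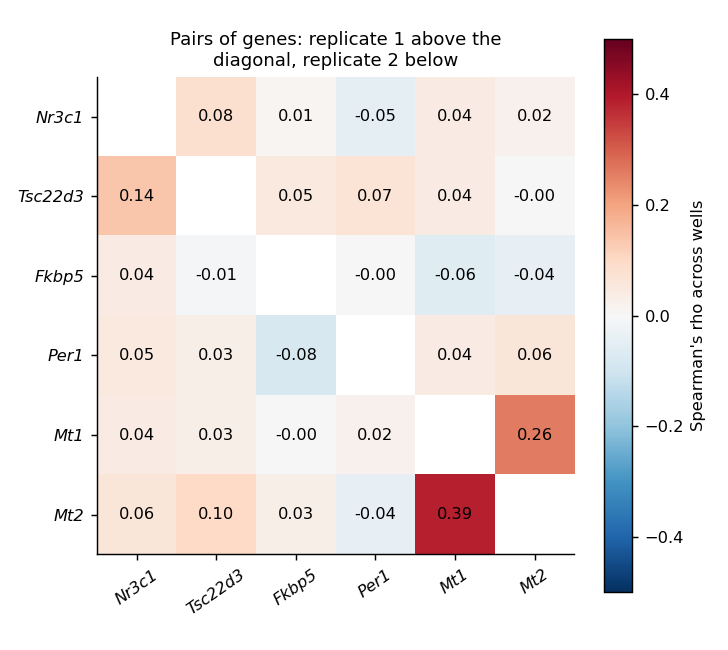
Spearman correlation across kept wells for each of the 15 pairs of the 6 genes, replicate 1 above the diagonal (338 wells) and replicate 2 below it (363 wells), coloured from -0.5 to 0.5. *Mt1* with *Mt2* stands at 0.26 and 0.39, and all other pairs lie between -0.08 and 0.14.

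Each gene was also compared with all genes that had a read in at least 20% of kept wells of both replicates, by the lower of its Spearman values in the replicates. *Per1* was most like *Nr4a1* (0.27 and 0.24 in replicates 1 and 2), *Apold1* (0.23 and 0.22) and *Egr1* (0.22 and 0.27), among 3923 genes. *Nr4a1* and *Egr1* are immediate early transcription factors, and the summed level of 28 dissociation response genes correlated with *Per1* at 0.22 and 0.27. For *Tsc22d3* that correlation was 0.22 and 0.08, and for *Mt1* it was 0.03 in both. *Tsc22d3* was most like its relative *Tsc22d1* (0.22 and 0.18), then *Ak3* and *Rps3a1*. *Mt2* was most like *Mt1*, then *Atp1b3* (0.21 in both), a subunit of the sodium pump, and *Kxd1*. *Mt1* was most like the collagen gene *Col1a2* (0.20 and 0.19), the zinc importer *Slc39a10* (0.19 and 0.22) and *Rps26* (0.15 in both), where *Mt2* itself was not among the genes compared because 12.4% of wells of replicate 2 had a read of it. *Col1a2* is a fibroblast gene, and the summed level of 7 fibroblast genes correlated with *Mt1* at 0.14 and 0.08. *Nr3c1* was most like *Apc*, *Purb* and *Atp2b1* and *Fkbp5* like *Smim15*, *Erp29* and *Mcrip1*, all with lower values of 0.18 or below.

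The kept wells were clustered without the 6 genes, and clusters were named from vessel markers, which gave 134 artery-like wells (35 in replicate 1 and 99 in replicate 2), 157 capillary-like wells (125 and 32) and 239 vein-like wells (119 and 120). A further 171 wells (59 and 112) stayed unnamed, in a cluster where 4 lymphatic, 6 mural and 4 of 5 keratinocyte markers were higher. They count among the kept wells in the shares given above. In replicate 2 their endothelial markers summed to 4199 CPM, against 8022 to 9159 CPM in the named classes. Their lymphatic markers summed there to 2858 CPM, against 119 to 264 CPM. In replicate 1 these wells had more *Mt1* and *Mt2* than any named class, at 178 and 68.9 CPM, and summed keratinocyte markers of 341 CPM against 24.5 to 43.8 CPM in the named classes. In replicate 2 they stood at 17.8 CPM of *Mt1* and 13.8 CPM of *Mt2*, with 163 CPM of keratinocyte markers, whose part in these values was not tested. Of the listed markers, 9 of 12 artery, 10 of 11 capillary and 7 of 11 vein markers were higher in the cluster that carries the name. The question was whether the 6 genes differ along the vessel tree. Counts were added up by class and replicate into 6 sums, and edgeR (quasi-likelihood, replicate as block) compared them. Of 15664 genes tested, 0 passed a Benjamini-Hochberg adjusted p of 0.05 (0% called) for artery-like against vein-like wells, for capillary-like wells against the mean of both, or for any difference between the classes. At an unadjusted p under 0.05 there were 600, 616 and 586 genes, or 3.83%, 3.93% and 3.74%, and DESeq2 called 207, 226 and 161 genes, or 1.32%, 1.44% and 1.03%. No member passed in edgeR or DESeq2, and the values by class below describe the 2 replicates only. On simulated counts with the spread of these sums the same test recovered none of the changed genes, so a count of 0 does not show that the classes are alike. In such sums, fewer cells with a gene and less RNA per cell cannot be told apart.

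**Figure D4:**
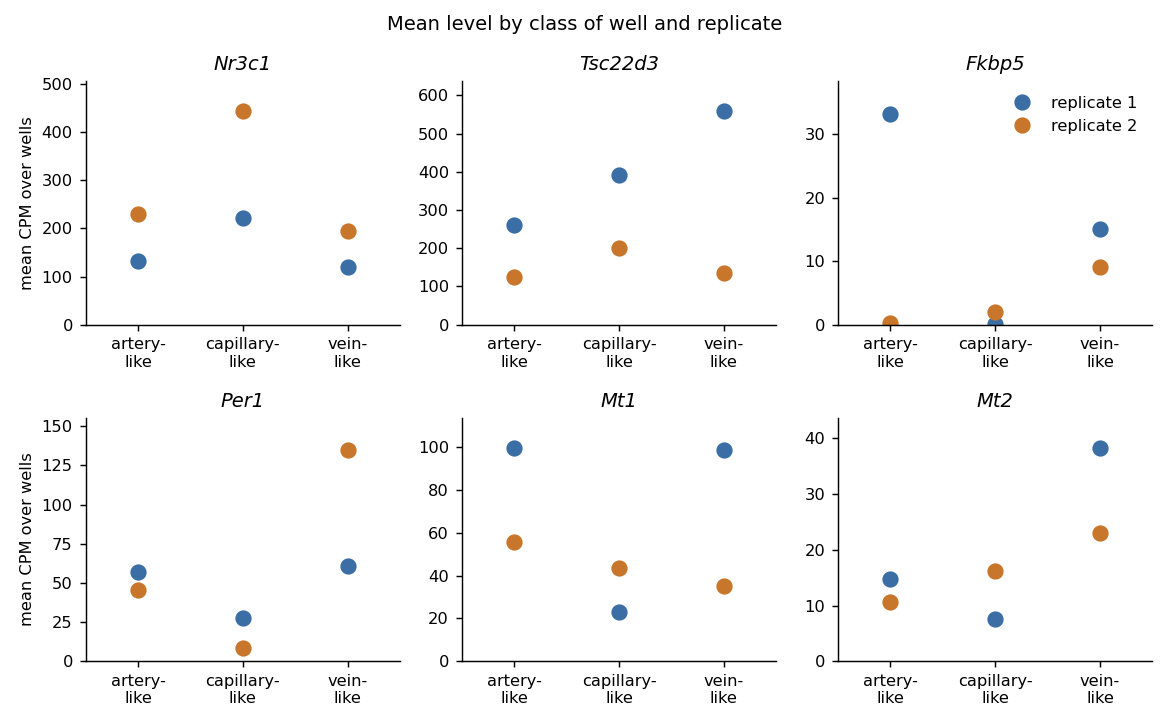
Mean CPM over wells of each gene in artery-like, capillary-like and vein-like wells, 1 point per replicate and no error bar; each axis starts at 0. *Nr3c1* is highest in capillary-like wells and *Per1* and *Mt2* in vein-like wells of both replicates, while *Mt1* and *Tsc22d3* are ordered differently in replicate 1 and replicate 2; single wells carry some of these means.

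*Nr3c1* was highest in capillary-like wells of both replicates. Capillary-like wells averaged 221 CPM (replicate 1) and 444 CPM (replicate 2), artery-like wells 132 and 231 CPM, and vein-like wells 119 and 195 CPM. The capillary-like values lay above the vein-like ones, and the artery-like values overlapped with both. The mean of 444 CPM rests on few wells: 3 of 32 wells held 79.8% of it. The share of capillary-like wells with a read, 43.8%, was the lowest of the classes in replicate 2, below 52.5% in artery-like and 60.8% in vein-like wells. Without the highest well of each class and replicate, capillary-like wells stood at 206 and 279 CPM. Artery-like wells then stood at 117 and 202 CPM and vein-like wells at 114 and 183 CPM. On the sums, capillary-like wells were 0.91 ± 0.36 log2 units (SE) above the mean of the others, with an unadjusted p of 0.0402 and an adjusted p of 0.917 in edgeR. The direction turned, to -1.78, at a limit of 10 CPM on the genes of other cells, which kept 18 wells of replicate 1. The share of wells with 10 or more reads was 44.8% and 31.2% in capillary-like wells, 40.0% and 27.3% in artery-like wells and 37.0% and 40.0% in vein-like wells, an order that differed between replicates.

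By the mean over wells, *Per1* was highest in vein-like and lowest in capillary-like wells of both replicates. Vein-like wells had means of 61.0 CPM in replicate 1 and 135 CPM in replicate 2, artery-like wells 56.9 and 45.8 CPM, and capillary-like wells 28.0 and 8.79 CPM. The capillary-like values lay below all 4 others, but 1 well at 2708 CPM carried most of the artery-like mean of replicate 2. Without the highest well of each class and replicate, artery-like wells stood at 29.2 and 18.6 CPM, capillary-like wells at 21.7 and 4.30 CPM and vein-like wells at 55.4 and 121 CPM, so the order within each replicate was kept while artery-like and capillary-like values overlapped. On the TMM-scaled sums of replicate 1, however, *Per1* was higher in artery-like (72.5 CPM) than in vein-like wells (60.4 CPM). Wells with 10 or more reads made up 27.7% and 15.8% of vein-like, 17.1% and 5.05% of artery-like and 7.20% and 0% of capillary-like wells, where 0 of 32 wells allow a share of up to 9.38%. On the sums, capillary-like wells were 2.74 ± 1.13 log2 units (SE) below the mean of the others, with an unadjusted p of 0.0432 and an adjusted p of 0.917. With classes from a finer clustering (resolution 0.8) the direction turned, to 0.51. *Nr3c1* and *Per1* were thus 2 of 6 members at an unadjusted p under 0.05 in this contrast, beside 3.93% of all genes, and 0 of 6 were in the artery-vein contrast. The summed dissociation response genes had the same order, at 29287 and 20924 CPM in vein-like, 15582 and 12995 CPM in artery-like and 13520.3 and 8327 CPM in capillary-like wells; their part in the *Per1* values was not tested. Vein-like wells were also deeper, with a median of 184983 reads against 99329.5 in artery-like and 134661 in capillary-like wells.

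By the mean over wells, *Tsc22d3* was lowest in artery-like wells of both replicates, while its highest class was vein-like in replicate 1 and capillary-like in replicate 2. Vein-like wells averaged 558 CPM (replicate 1) and 136 CPM (replicate 2). Capillary-like wells averaged 391 and 202 CPM in the same order, and artery-like wells 261 and 124 CPM. The capillary-like mean of replicate 2 rests on 1 of 32 wells at 3173 CPM. Without the highest well of each class and replicate it stood at 106 CPM, between 95.4 CPM in artery-like and 123 CPM in vein-like wells. Replicate 1 lay above replicate 2 in every class, except that the TMM-scaled sums of capillary-like wells stood at 380.2 CPM in replicate 1 and 414 CPM in replicate 2. Vein-like wells of replicate 1 had the widest presence, with 10 or more reads in 79.0% against 54.4% of capillary-like and 48.6% of artery-like wells. In replicate 2 these shares were 21.7%, 18.8% and 17.2%. Artery-like wells were 0.45 ± 0.53 log2 units (SE) below vein-like wells on the sums, with an adjusted p of 0.999. From replicate 2 alone the sums gave the opposite direction, 0.30, against -1.04 from replicate 1 alone.

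*Mt2* was highest in vein-like wells of both replicates, at 38.1 and 22.9 CPM, against 14.8 and 10.6 CPM in artery-like and 7.65 and 16.1 CPM in capillary-like wells. Without the highest well of each class and replicate, vein-like wells stood at 35.1 and 18.4 CPM, artery-like wells at 11.4 and 8.06 CPM and capillary-like wells at 2.80 and 10.5 CPM. The artery-vein difference was 1.12 ± 1.26 log2 units (SE), lower in artery-like wells, with an adjusted p of 0.999. *Mt1* did not keep an order: it was 99.4 and 55.5 CPM in artery-like, 98.4 and 35.1 CPM in vein-like and 22.9 and 43.5 CPM in capillary-like wells. It was lowest in capillary-like wells of replicate 1 and in vein-like wells of replicate 2. Without the highest well, its highest class in replicate 1 was vein-like (83.2 CPM) and no longer artery-like (67.4 CPM). *Fkbp5* rested on few wells in each class. Its mean of 33.2 CPM in artery-like wells of replicate 1 came from 5 of 35 wells and was 15.3 CPM without the highest. In replicate 2 the artery-like mean was 0.292 CPM, from 1 of 99 wells. *Fkbp5* stood at 0.107 and 2.01 CPM in capillary-like wells and 15.1 and 9.11 CPM in vein-like wells. Of the vein-like wells of replicate 2, 1 held 1091 CPM and the others averaged 0.0220 CPM. The 6 members had a median log2 difference of -0.28 in both contrasts, beside -0.07 and -0.18 over all genes.

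No gene of the further lists passed in edgeR. Of 25 glucocorticoid targets tested, 3 were lower in artery-like than vein-like wells at an unadjusted p under 0.05 and 0 were higher, beside 3.83% of all genes in either direction, and their median log2 difference was -0.83 beside -0.07 over all genes. *Dusp1* was among these 3, at 1158 and 708 TMM-scaled CPM in the artery-like sums of replicates 1 and 2 and 2138 and 1673 in the vein-like sums, a difference of 1.05 ± 0.30 log2 units (SE). Of 28 dissociation response genes 5 were lower and 1 higher in the same contrast, with a median of -0.47. For capillary-like wells 2 targets were lower and 1 was higher, beside 3.93% of all genes, with a median of -0.42 beside -0.18. Of the 28 dissociation response genes 5 were lower there and 0 higher, with a median of -0.61. DESeq2, which called 1.32% and 1.44% of all genes in these contrasts, called 1 and 2 of 19 clock genes and no member (*Per2* and *Ciart* are named after their values were seen): the *Per1* relative *Per2* was lower in artery-like than vein-like wells, and *Ciart* and *Nfil3* were lower in capillary-like wells than in the others. For *Nfil3* the DESeq2 difference was -2.98 ± 0.76 log2 units (SE, adjusted p = 0.0130), in the direction of *Per1*, while edgeR gave -3.05 ± 0.78 with an adjusted p of 0.917.

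The plates also held wells of other cells. In 46 wells with at least 300 CPM of *Pdgfrb* or *Kcnj8* and under 100 CPM of *Pecam1* (8 in replicate 1 and 38 in replicate 2), *Mt1* stood at 205 and 105 CPM, above the 84.5 and 36.1 CPM of kept BEC wells of the same replicates. *Tsc22d3* stood there at 339 and 204 CPM, lower than in BEC wells in replicate 1 and higher in replicate 2, and *Nr3c1* at 138 and 219.9 CPM. In 125 endothelial wells with at least 300 CPM of *Prox1* or *Lyve1* (15 and 110), *Nr3c1* was higher, at 463 and 458 CPM against 170.0 and 212 CPM. *Tsc22d3* was lower in these lymphatic marker wells, at 189 and 55.5 CPM against 431 and 147 CPM, and *Per1* was 9.93 and 33.4 CPM against 46.1 and 69.4 CPM. *Mt1* was 24.2 and 21.6 CPM there. All 4 of these orders held in both replicates, with no test. The mural marker genes summed to 1356 and 569 CPM in the kept BEC wells, and their part in the *Mt1* values was not tested.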

How the data were processed

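The authors aligned 50-bp single reads of Smart-seq2 libraries to GRCm38 (mm10) with TopHat2 2.1.1, removed duplicates with SAMtools 0.1.18 and counted reads with featureCounts 1.4.6-p5. The annotation release is not given in the sources used here. Deposited were unnormalized counts, 1 per gene in every well, for 4 plates of 384 wells, without molecular identifiers, and spike-ins (0.9706% of reads) were left out. Members and lists were chosen with earlier results of these data known. Genes were named by membership, the 4 list genes highest per kb, and the 3 genes most like each member; marker genes describe wells, and *Sgk1*, *Arrdc3*, *Bcl2l1*, *Per2* and *Ciart* were named outside this rule after their values were seen. Wells needed 600 reads, 500 to 8000 genes, and the marker limits given above; doublets were not called. CPM are means over wells, and n = 2 replicates, whose spread may be technical if they share a pool of mice. Wells were clustered with leidenalg 0.10.2 on a graph of nearest neighbours (resolution 0.4, 1000 variable genes without the members and lists). Counts summed by class and replicate were tested with edgeR 4.0.16 (TMM, at least 10 counts in 2 sums, Benjamini-Hochberg adjustment), with the replicate as a block because same-numbered sums come from the same mice and plates; their deviations correlated at 0.124, 0.172 and 0.105. DESeq2 1.42.0, scran 1.30.0 factors, other limits, thinning and single plates were alternatives. On simulated data the test recovered changed genes at a low preset spread, but none at the spread estimated from these sums. Promoter sequences are from RefSeq (GRCm38.p6), coding sequences from GENCODE vM21.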

Additional observations from a re-analysis of the deposited data

Results flagged for a closer look

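Of 39 quantities compared over the 4 plates, 1 had a plate apart from the others, and chance alone flags about 1 in 20. It was the Spearman correlation of *Tsc22d3* and *Fkbp5* across wells, at -0.09 on plate A of replicate 2 against 0.03, 0.04 and 0.04 on the other plates. The gap was 0.881 of the range, above the critical value for 4 samples. On that plate *Fkbp5* had a read in 3 of 176 wells.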

How the results depend on the processing

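No member passed the threshold under any alternative. Without the replicate block 0 genes were called in each contrast. The genes called, 0 in edgeR, numbered 207, 226 and 161 with DESeq2 (artery-vein, capillary, any difference), 27, 23 and 54 with no filter on low counts, and 10, 29 and 42 on plate A alone. At resolution 0.8, which was chosen after seeing the data, 2 were called for artery-vein and 6 for any difference. For any difference there were also 6 at the 10 CPM limit, 1 at 300 CPM and 2 after thinning. Of 168 log2 differences of members, 143 kept their direction and 25 reversed; the cause was not tested.

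For artery-vein, plate A gave -0.11 for *Nr3c1* and -0.13 for *Mt1*. Classes from marker scores gave 0.17 for *Tsc22d3*, 1.66 for *Fkbp5* and 0.57 for *Per1*. *Fkbp5* was 0.31 with no replicate block and 1.11 on plate B, and *Per1* was 1.04 at 10 CPM. Leaving out either replicate gave -0.04 to 0.47 for *Nr3c1*, -1.04 to 0.30 for *Tsc22d3*, -6.49 to 0.92 for *Fkbp5* and -2.28 to 0.26 for *Per1*. For capillary-like wells, the 10 CPM limit gave -1.78 for *Nr3c1*, 5.23 for *Fkbp5*, 0.74 for *Mt1* and 1.12 for *Mt2*. *Fkbp5* was 3.79 on plate B, 1.70 at 300 CPM and 0.19 with marker scores, and resolution 0.8 gave 0.51 for *Per1* and 0.25 for *Mt1*. Leaving out either replicate gave -0.0017 to 1.29 for *Tsc22d3*, -7.20 to 2.22 for *Fkbp5*, -1.60 to 0.52 for *Mt1* and -1.05 to 0.58 for *Mt2*. With 1 replicate left, each sum is assumed to vary like the others.

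Mean CPM stayed within the replicate SD in 44 of 48 values. Values that leave out a replicate are among the 44, because with n = 2 they always lie within the SD. Outside it were *Fkbp5*, at 6.10 and 13.4 on plates A and B and 7.69 in named classes, and *Per1*, at 79.1 with scran factors. Thinning lowered shares of wells in replicate 1 to 48.1% for *Nr3c1*, 70.9% for *Tsc22d3*, 4.15% for *Fkbp5*, 19.6% for *Per1*, 29.4% for *Mt1* and 15.4% for *Mt2*, and in replicate 2 to 23.5% for *Tsc22d3*, 13.6% for *Per1* and 16.7% for *Mt1*. At the 10 CPM limit the 18 wells left in replicate 1 had shares of 88.9%, 100.0%, 5.56% and 33.3% for *Nr3c1*, *Tsc22d3*, *Fkbp5* and *Per1*. Of 135 correlations of pairs, 101 kept their value within the replicate spread and 34 moved. The 101 also include the values that leave out a replicate, which lie within the spread in every case. The Pearson correlation of log2(CPM + 1) of *Mt1* and *Mt2* averaged 0.42. The count of glucocorticoid targets at least 2-fold higher in replicate 1 relative to the median gene, added after seeing the data, was 3 of 20. It became 6 of 18 at 10 CPM, 5 of 19 and 8 of 20 on plates A and B and 4 of 20 in named classes. With scran factors and after thinning it was 5 of 20. The genes changed too: *Sgk1* was not among the 5 on plate A. The share of all genes moved from 6.22% to 13.6%, 9.77%, 9.64%, 6.54%, 9.45% and 6.38% in the same order. On each plate, with scran factors and at 300 CPM, 1 target was that much higher in replicate 2. Class means without the highest well, given with the classes, were likewise added after seeing the data.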
